A study of Cucumis sativus with 4 samples.

Results

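The most abundant transcripts of the cucumber leaf are described here: the 192 of 17585 genes in the deposited table, 1.09%, that averaged at least 500 normalised CPM over the 4 libraries of the study. CPM relates the reads of a gene to the size of its library, here rescaled by the authors. The genes were chosen by this mean alone, so their high level is a description and not a finding. The libraries came from the first true leaf of seedlings 20 days old, of inbred line R1461 of Cucumis sativus. In the 2 RNAi libraries the plants carried a construct with a 402-bp piece of the CsTCP18a coding sequence. In the 2 wild type libraries (WT) they carried the empty vector PFGC-1008, so both groups had passed through Agrobacterium-mediated transformation. The labels do not give the number of transgenic lines, nor whether replicate libraries stem from different plants. The p-values therefore measure the spread between these libraries alone, and that spread may be technical.

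A small set of genes supplies a large part of the messenger RNA of a green leaf. In land plants these typically include nuclear genes for the small subunit of Rubisco, for chlorophyll a/b-binding proteins and for other parts of the photosystems, together with genes for translation, redox protection and defence. The silenced gene, CsTCP18a, encodes a TCP protein, one of a family of DNA-binding regulators of growth found in plants. The table gives locus IDs without gene names, and none of the IDs of these 192 genes was found in RefSeq's gene table. Which member encodes which protein is therefore not analysed here, and neither is the level of CsTCP18a or of any leaf marker gene. Members are called by their place in the order of the mean, from member 1 to member 192, with 7 IDs given. Gene lengths are not in the table, so levels and ranks count reads and not molecules per length, and a long transcript ranks higher than a short one with as many molecules.

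The gene-assigned reads numbered 24372389 and 27507543 in RNAi libraries 1 and 2, and 27664402 and 18930131 in WT libraries 1 and 2. This depth left little counting error for the members: their median was 17331 and 19541 reads in RNAi libraries 1 and 2, and 27816 and 16659 reads in WT libraries 1 and 2. The WT libraries stood further apart than the RNAi libraries, so the value of each library is given singly wherever this matters.

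The members held a smaller part of the reads in the RNAi leaves. They took up 18.5% and 19.3% of the reads in RNAi libraries 1 and 2, against 31.5% and 26.3% in WT libraries 1 and 2. Every RNAi value lay below both WT values. The means were 18.9% ± 0.609 in RNAi and 28.9% ± 3.67 in WT leaves (SD, n = 2 each), a difference of -9.95 percentage points. An exact two-sided permutation test over 2 and 2 libraries gave p = 0.333, the smallest value it can give. The rule can add to this difference, since 76 members passed 500 through the WT mean only and 26 through the RNAi mean only. Each library's own most abundant genes, as many as there are members, were also taken without the rule. These held 20.9% and 21.4% in RNAi libraries 1 and 2, against 32.4% and 27.5% in WT libraries 1 and 2. The mean difference of these own lists was -8.85 points. The 90 members at or above 500 in both groups, a set without the members that passed in 1 group only, differed by -3.71 points. They held 13.8% and 14.5% in RNAi libraries 1 and 2, against 20.5% and 15.2% in WT libraries 1 and 2. Counting error was far below these differences, with a 95% Wilson interval of 31.4% to 31.5% in WT library 1, for example, although PCR copies are not independent molecules and such intervals cover counting error only. The 1937 genes of the next class, with means of 100 to 500, held 35.4% ± 0.480 of the reads in RNAi and 35.4% ± 1.41 in WT leaves. The genes under 100 made up the balance, with 45.7% ± 0.130 in RNAi and 35.8% ± 2.26 in WT leaves. In bulk leaf RNA, fewer cells of a type and less RNA per cell cannot be told apart.

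**Figure D1:**
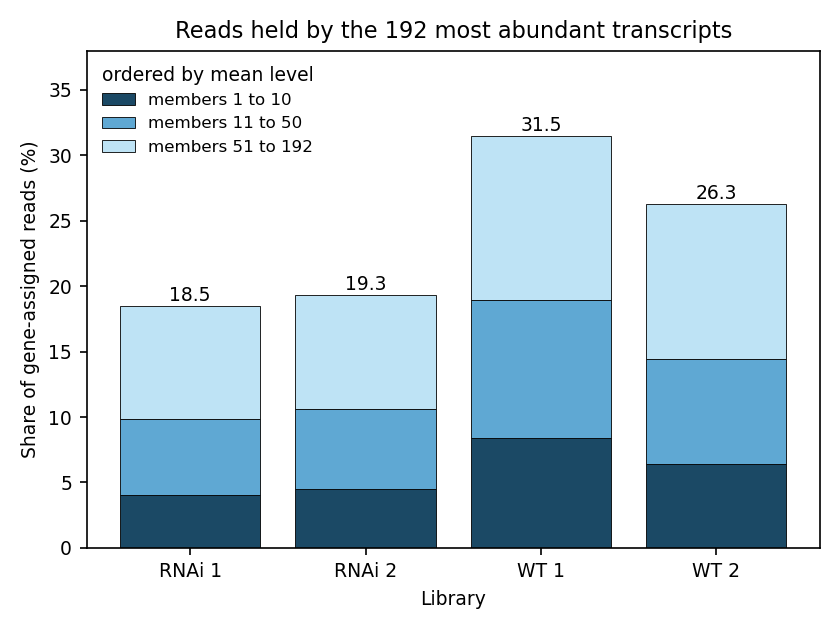
Share of gene-assigned reads (%) held by the 192 members in each library, 1 bar per library, stacked by the members' order by mean level. The RNAi bars reach 18.5% and 19.3%, below the WT bars at 31.5% and 26.3%, and each of the 3 stacked parts is smaller in the RNAi bars.

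No member dominated a library. The largest share of 1 member was 0.795% and 0.803% in RNAi libraries 1 and 2, against 1.83% and 1.08% in WT libraries 1 and 2. The median member held 0.0711% and 0.0710% of the RNAi reads, against 0.101% and 0.0880% of the WT reads. Within the members' own reads, the most abundant 37 and 35 members sufficed for 50% in RNAi libraries 1 and 2, against 32 and 35 in WT libraries 1 and 2. The reads were thus spread over the members about as evenly in one group as in the other, and the difference lay in how much the members held together. It was present at both ends of the list: members 1 to 50 held 10.3% ± 0.559 in RNAi and 16.7% ± 3.18 in WT leaves, and members 51 to 192 held 8.65% ± 0.0507 in RNAi and 12.2% ± 0.487 in WT leaves.

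The difference in share was built from many members. Of the 192, 125 had a smaller mean share in RNAi leaves, summing to -13.4 percentage points, and 67 had a larger one, summing to 3.43 points. The largest loss of a single member was -1.25 points (member 2), followed by -0.831 (member 6) and -0.748 (member 1). These 3 losses came to -2.83 points, and the 20 largest losses to -6.86 points. Without the 10 largest losses the other 182 members still differed by -5.01 points. The largest gain was 0.327 points (member 5), and the next 0.272 points (member 36). Member 5 held 0.750% and 0.803% of the reads in RNAi libraries, against 0.632% and 0.268% in WT libraries, so its shares did not overlap.

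**Figure D2:**
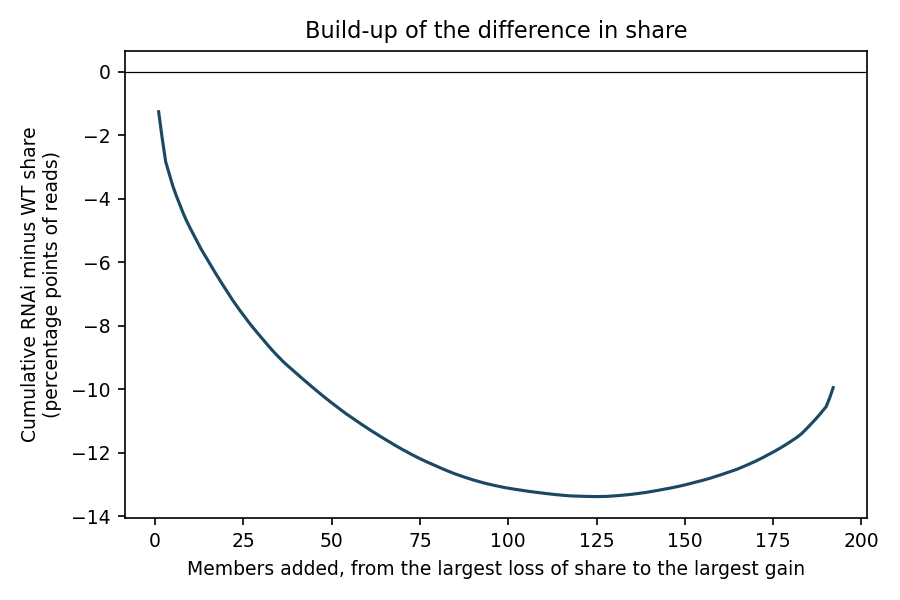
Cumulative difference in mean read share, RNAi minus WT in percentage points, as members are added in order from the largest loss to the largest gain. The curve passes -6.86 points after 20 members, reaches -13.4 after 125 and ends at -9.95 with all 192.

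The top of the list changed its order between the groups. Member 1, Csa5G609710, had 4930.5 and 6373 normalised CPM in RNAi libraries 1 and 2, against 21888 and 10622 in WT libraries 1 and 2. Both RNAi values lay below both WT values, but the WT libraries differed by 2.06 times. In the test described below its log2 fold change was -1.44 (SE 0.62, 95% interval -3.07 to 0.18, adjusted p = 0.103 in limma), so it was not called. It was called by limma without trend (adjusted p = 0.0317), by edgeR (0.0464), by DESeq2 (0.000216) and in limma without WT replicate 2 (0.0449). Csa5G182730, member 2, had 1526 and 1998 normalised CPM in RNAi libraries, against 22110.0 and 11737 in WT libraries. It was the most abundant transcript of both WT libraries and stood at ranks 24 and 17 in RNAi libraries 1 and 2. Its log2 fold change was -3.20 (SE 0.50, adjusted p = 0.00498 in limma), the most abundant of the members that fell. With RNAi replicate 1 or 2 left out the adjusted p was 0.21 and 0.144.

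The next members show how far neighbours in the order could part. Member 3 had 6055 and 6908 normalised CPM in RNAi libraries, against 10430.4 and 8576 in WT libraries, and held ranks 3 and 2 in RNAi and rank 4 in both WT libraries. Member 4 had 6916 and 6847 in RNAi libraries, against 6267 and 8912 in WT libraries. Its RNAi values lay between its WT values, and it was the most abundant transcript of the RNAi mean. Member 5 also overlapped between the groups in normalised CPM, unlike in share, with 6522 and 7047 in RNAi libraries against 7638 and 2904 in WT libraries. Member 6 separated widely, with 468 and 481 in RNAi libraries against 12075 and 8373 in WT libraries. Its rank was 166 and 154 in RNAi libraries 1 and 2, against 3 and 5 in WT libraries 1 and 2, and its log2 fold change was -4.40 (SE 0.30, adjusted p = 0.000459 in limma). Without RNAi replicate 1 the adjusted p was 0.0513, just past the threshold. Csa6G356990, member 7, kept its place best among the members without a call, at rank 5 in both RNAi and rank 6 in both WT libraries. Its levels were 3274 and 3479 in RNAi libraries, against 7128 and 6048 in WT libraries, a log2 fold change of -0.96 (SE 0.37, adjusted p = 0.0749 in limma). With plain CPM it was -0.57 (adjusted p = 0.166 in limma).

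**Figure D3:**
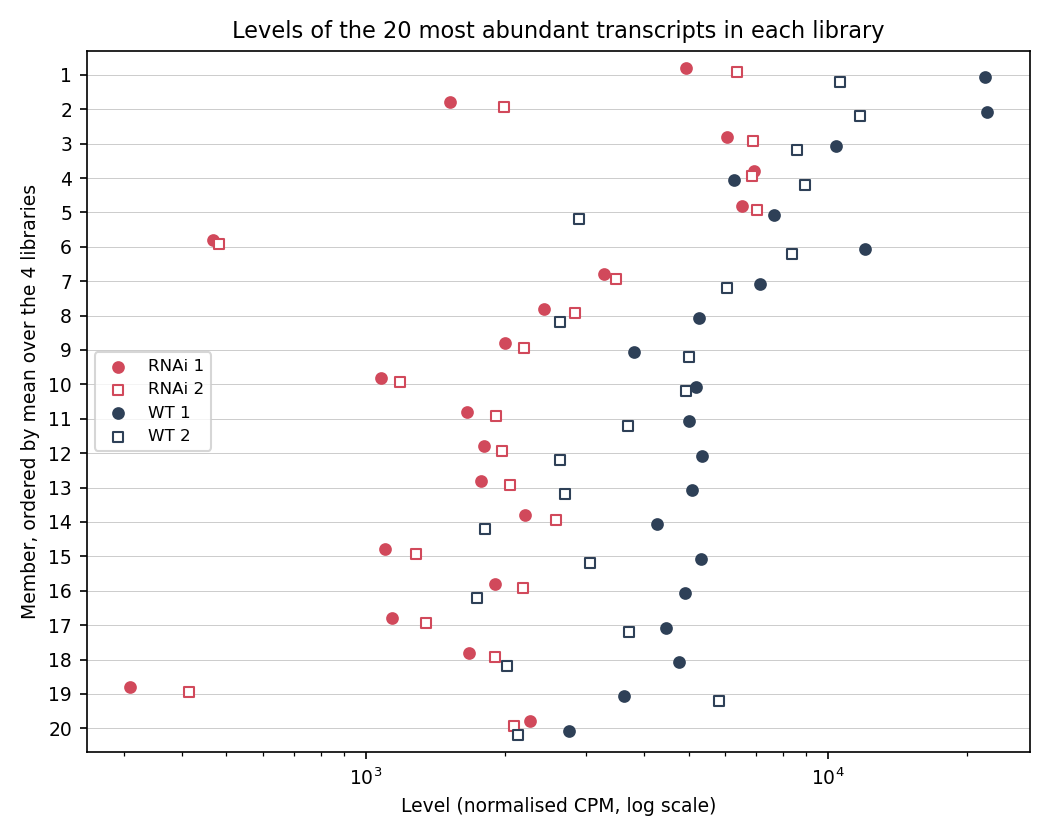
Levels of the 20 most abundant members in each library (x axis, normalised CPM, log scale), 1 row per member, with RNAi libraries in red, WT libraries in dark blue, filled circles for library 1 and open squares for library 2. Member 6 shows the widest gap between the groups, with 468 and 481 in RNAi against 12075 and 8373 in WT libraries, whereas in member 4 the RNAi points lie between the WT points.

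Ranks by read level moved far more between the groups than within them. From the RNAi to the WT group means the median member differed by 109.5 ranks among the 17585 genes, and 99 of 192 members differed by more than 100. Between the libraries of a group the median was 18.5 ranks in RNAi, with 36 members over 100, and 32 ranks in WT, with 26 members over 100. By group means, 97 members stood higher in the RNAi order and 91 lower, with 4 at the same rank. The genes of 100 to 500 showed the same contrast, with medians of 834 ranks between the groups, 108 in RNAi and 203 in WT. The 26 members that reached 500 in the RNAi mean only, and the 76 in the WT mean only, had to differ in level between the groups.

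The leading genes of the groups overlapped in part. Of the 10 highest genes by group mean, 5 were common to RNAi and WT, and of the 20 highest, 11. The 2 libraries of a group shared 8 of 10 and 18 of 20 in RNAi, and 6 of 10 and 13 of 20 in WT. A library from each group shared between 4 and 6 of 10 and between 6 and 13 of 20. Thus for the first 20 genes, the most alike pair across the groups shared as many as the WT pair did. Across the first 192 genes the lists parted more clearly, with 176 shared between RNAi libraries, 152 between WT libraries and 86 to 101 across the groups.

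The threshold was passed in different ways. Of the 192 members, 90 averaged at least 500 normalised CPM in both groups, 26 in RNAi only and 76 in WT only. Over all genes, 142 reached 500 in the RNAi mean and 256 in the WT mean. The 90 common genes were 63.4% of the RNAi list and 35.2% of the WT list. A member that entered through 1 group had to differ between the groups, so counts over all members are in part set by the rule. The members just inside the threshold averaged 501, 503 and 506, and the genes just outside it 499.1, 498.6 and 497.7. The last member had 567 and 492 in RNAi libraries against 421 and 524 in WT libraries, and the first gene outside had 397 and 425 in RNAi libraries against 670.1 and 504 in WT libraries.

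Differences between the groups were tested over the whole table with limma's moderated test on log2(normalised CPM + 1), with Benjamini-Hochberg adjustment over 17491 genes and a threshold of 0.05. All 192 members entered the test. Of these, 21 (10.9%) rose and 88 (45.8%) fell in RNAi leaves, and 83 (43.2%) were not called. Over all genes tested, 31.0% rose and 29.5% fell, 60.6% in all, against 56.8% of the members. The counts rested on single libraries. Over the members and over all genes tested alike, both counts were lowest when 1 RNAi library was left out. The share of members with a call was near that of the table, and the members leaned to lower values. So did the genes of 100 to 500, of which 22.0% rose and 46.9% fell. The median log2 fold change of the members was -0.70, beside 0.03 over all genes tested and -0.37 over the genes of 100 to 500. It was -0.45 without WT replicate 1 and -1.12 without WT replicate 2. The RNAi values did not overlap the WT values in 148 members, with RNAi higher in 35 (18.2%) and lower in 113 (58.9%). Over all genes tested these shares were 42.8% and 40.8%, and over the genes of 100 to 500 they were 30.5% and 57.7%. When the 90 members at or above 500 in both groups were taken alone, 5 rose, 20 fell and 65 were not called, with a median of -0.46.

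The scaling of the libraries sets where no change lies. With plain CPM, in which each library is divided by its own total, the median of all genes tested moved from 0.03 to 0.38 and that of the members from -0.70 to -0.31. Then 36 members rose and 74 fell, against 43.1% and 19.9% of all genes tested. Relative to the median of all genes the members' median was -0.73 with the deposited scaling and -0.70 with plain CPM. All 21 members that rose under the deposited scaling also rose with plain CPM, and 74 of the 88 that fell also fell.

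**Figure D4:**
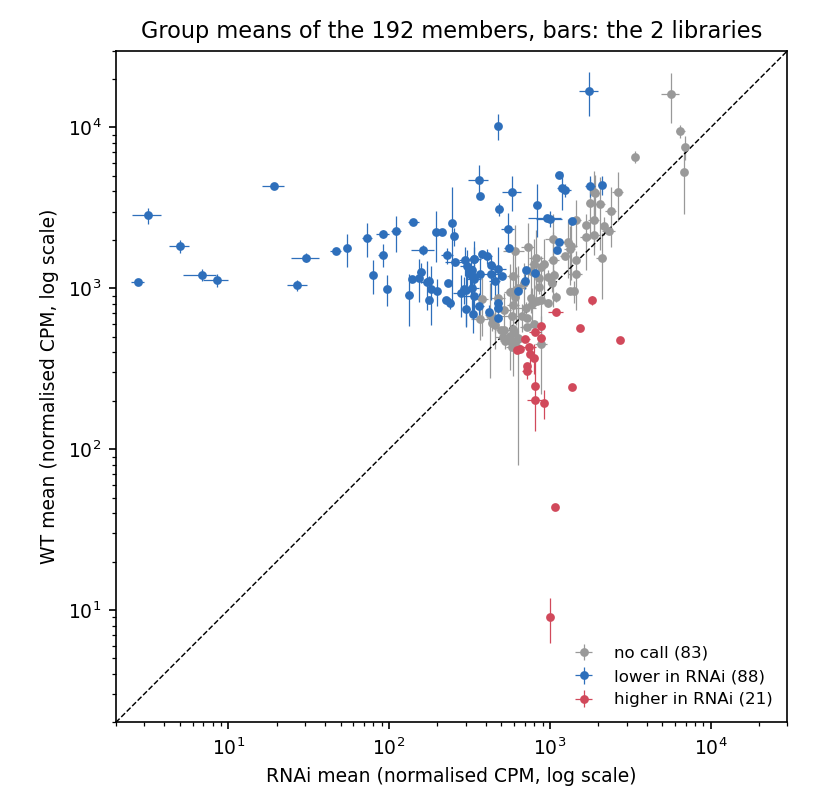
RNAi mean (x axis) against WT mean (y axis) of each member in normalised CPM on log scales, with bars spanning the 2 libraries of a group and a dashed line of equality. The 88 blue points that fell reach down to 2.74 in RNAi while staying above 654 in WT, and the 21 red points that rose lie below the line, with WT means from 9.04 to 841.

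The members that fell did so by a median of -2.12 on the log2 scale. Of the 88, 77 changed at least 2-fold in CPM + 1. Among all members 47 were at least 4-fold lower and 5 higher, and 26 were at least 8-fold lower and 2 higher. Over the 17491 genes tested the lean was the other way, with 1312 lower and 1564 higher at 4-fold. At 8-fold 531 were lower and 781 higher. The genes of 100 to 500 leaned as the members did, with 239 lower and 106 higher at 4-fold. The RNAi means of the 88 ranged from 2.74 to 2103, with a median of 326, against WT means from 654 to 16924, with a median of 1346. In 15 of them the RNAi mean was under 100, and in 5 it was under 10. Genes this low in RNAi leaves could be members only through high WT values. Csa3G105950, member 44, changed most. It had 2.53 and 3.83 normalised CPM in RNAi libraries 1 and 2, from 71 and 120 reads, against 2528 and 3147 in WT libraries 1 and 2. Its rank by group mean was 15044 in RNAi and 25 in WT, and its log2 fold change was -9.42 (SE 0.20, adjusted p = 0.000121 in limma).

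The other 4 members with an RNAi mean under 10 had WT means from 1098 to 1831. Member 163 was the steadiest of them in WT leaves, with 84 and 78 reads in RNAi libraries against 25257 and 19067 reads in WT libraries. Its WT levels were 1104 and 1092 normalised CPM. Member 24 lay higher in the order, with 16.3 and 22.3 in RNAi libraries against 4383 and 4306 in WT libraries, at group ranks 9186 and 12. In these members each RNAi value lay far below both WT values, and the WT libraries agreed within 1.3 times. Of the 28 members whose highest library exceeded the lowest by over 10 times, 26 had fallen and 2 had risen. This count was not made over all genes. The largest fold changes counted above leaned the other way over all genes tested, with 531 lower and 781 higher. The rule can add to the lean of the members, since 76 passed through the WT mean only and 26 through the RNAi mean only.

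The members that rose did so by a median of 1.13 on the log2 scale, and 12 of the 21 changed at least 2-fold. With plain CPM the medians of the same 21 and 88 members were 1.52 and -1.73, so how far the sizes differ depends on the scaling. The RNAi means of the 21 ranged from 621 to 2747, with a median of 814, against WT means from 9.04 to 841, with a median of 416. The most abundant of the 21 was Csa4G000580, member 36. It had 2837 and 2656 normalised CPM in RNAi libraries, against 473 and 488 in WT libraries, and stood at ranks 6 and 7 in RNAi libraries 1 and 2, against 287 and 252 in WT libraries 1 and 2. Its log2 fold change was 2.51 (SE 0.18, adjusted p = 0.000569 in limma).

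The largest rise belonged to Csa5G470560, member 187. It had 1015 and 1001 in RNAi libraries, against 11.8 and 6.24 in WT libraries, from 271 and 109 WT reads. The log2 fold change was 6.71 (SE 0.28, adjusted p = 0.000178 in limma). Member 160 was close behind, with 1081 and 1069 in RNAi libraries against 45.2 and 42.1 in WT libraries. These were the 2 members that rose with a WT mean under 100. The 21 members that rose together held 2.45% of the reads in RNAi and 0.723% in WT leaves. The 88 that fell, a larger set, together held 4.26% in RNAi and 15.6% in WT leaves. Both sets were sorted by their calls on these same values, so the direction of these sums was fixed in advance.

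The 83 members without a call held 11.8% and 12.5% of the reads in RNAi libraries 1 and 2, against 14.9% and 10.3% in WT libraries 1 and 2. Both RNAi values lay between the WT values. Of the 83, 55 had a negative and 28 a positive log2 fold change. A missing call did not show equal levels. In 34 of the 83 the 95% interval stayed within 1 log2 unit of 0, and in 49 it reached beyond. Of all members, 32 kept their highest library under 1.5 times the lowest. The steadiest was member 100, with a mean of 829 and a highest library 1.05 times the lowest.

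The 2 libraries of a group lay closer together in RNAi than in WT leaves. The RNAi libraries differed by a median of 1.14 times per member and by at most 1.62 times. In WT the median was 1.29 times and the largest 9.56 times. No member differed over 2-fold between RNAi libraries, whereas 43 (22.4%) did so between WT libraries. In 134 of 192 members the WT libraries differed more than the RNAi libraries did. The coefficient of variation had a median of 8.99% in RNAi and 18.0% in WT leaves (n = 2 each). Counting error was small beside this: its median standard error of the log2 ratio was 0.015 in RNAi and 0.014 in WT, and the ratio exceeded 2 such errors in 172 members in RNAi and 178 in WT.

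The median difference between libraries of a group was larger in the members than in the genes of 100 to 500. Among the 1936 genes of 100 to 500 with reads in both libraries, the median ratio was 1.07 times in RNAi and 1.15 times in WT. Differences over 2-fold between RNAi libraries were found in 0.258% of these genes, against 0 members, and between WT libraries in 7.33%. The largest RNAi ratio was 5.36 times in these genes, above the 1.62 times of the members. RNAi library 1 was the higher of its pair in 33.9% of the members, against 47.2% of the genes of 100 to 500. The members chosen here include genes that passed 500 through 1 high WT library. How far the rule shapes the contrast between these sets was not tested. The group difference exceeded the difference within both groups in 138 members, and the WT difference exceeded the group difference in 50. This count was not made over all genes, and members that passed 500 in 1 group only had to differ. By non-overlap of the groups, 77.1% of the members separated, against 83.6% of all genes tested.

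**Figure D5:**
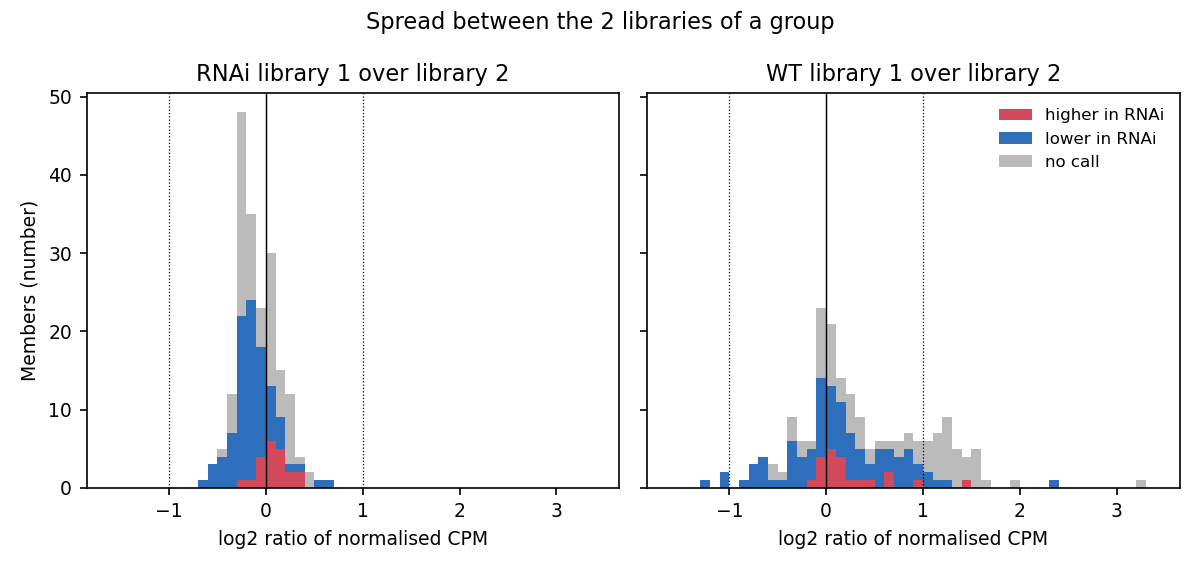
Number of members by the log2 ratio of library 1 over library 2 in RNAi (left) and WT (right) leaves, coloured by the call, with dotted lines at a 2-fold difference. The RNAi ratios all stay inside the dotted lines, whereas 40 members lie beyond 2-fold on the right side in WT leaves, 34 of them without a call. A wide WT ratio in itself makes a call less likely.

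WT library 1 was the higher in 132 of the 192 members with normalised CPM, but in 99 with plain CPM, where 35 differed over 2-fold. In normalised CPM the largest differences between the WT libraries went mostly one way. Of the 43 members over 2-fold apart, 40 were higher in WT library 1, and 36 of these had a ratio between 2 and 3. These 40 were picked for that ratio after the values were seen, so they are a description. They held 9.44% of the reads in WT library 1 and 4.39% in WT library 2, a difference of 5.05 points out of the 5.19 points by which all members differed between the WT libraries. The other 152 members held 13.3% in both RNAi libraries, against 22.0% and 21.9% in WT libraries 1 and 2. That the WT values of the 152 lie so close follows in part from leaving out the 40, so no spread is attached to their difference of -8.66 points.

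The RNAi libraries stood between the WT libraries for many of the 40. Together the 40 held 5.22% and 6.03% of the reads in RNAi libraries 1 and 2, and in 18 of them both RNAi values lay between the WT values. In 39 of the 40 RNAi library 2 was the higher of its pair, by a median of 1.18 times. The same held for 23 of the 26 members with WT library 1 from 1.5 to 2 times above WT library 2, again by a median of 1.18 times. In the 66 members with WT library 1 up to 1.5 times above WT library 2, RNAi library 2 was the higher in 32. Where WT library 2 was the higher, RNAi library 2 led in 25 of 49 members up to 1.5 times apart and in 8 of 11 further apart. One of the 40 rose, 5 fell and 34 were not called. The groups overlapped in 25 of the 40, while in 13 both RNAi values lay below and in 2 above both WT values. Over all genes tested 60.6% were called, and the groups did not overlap in 83.6%. The wide WT difference for which the 40 were picked also makes calls rarer and overlap commoner. These counts are therefore in part set by the choice. The widest WT ratio was that of Csa1G445860, member 173, with 579 and 685 normalised CPM in RNAi libraries against 766 and 80.1 in WT libraries. Its log2 fold change was 1.34 (SE 1.06, 95% interval -1.43 to 4.10, adjusted p = 0.322 in limma). Without WT replicate 1 it was 2.96, and without WT replicate 2 it was -0.28.

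Members with IDs next to each other were rare. The numbers of 4 pairs of members differed by 10, the step between consecutive IDs. Members 3 and 8 form one such pair, with log2 fold changes of -0.55 and -0.50, neither called. Members 181 and 156 both fell, with log2 fold changes of -2.66 and -6.90. The other 2 pairs had opposite signs, with 0.61 (called) and -0.54 (not called) in members 87 and 115, and -0.20 and 0.0013 in members 63 and 100, neither called. If such neighbours are near-identical copies, their counts are uncertain, and this was not tested. By ID prefix, the members made up between 0.968% (Csa2) and 1.32% (Csa4) of the genes of the numbered prefixes, and 0 of 79 genes with the prefix CsaU.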

How the data were processed

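The authors deposited 1 table of normalised signal per gene, called CPM in its name, for 2 RNAi and 2 WT libraries. The submitters' processing notes name TopHat and HTSeq, with no version. The genome build is not given in the sources used here, nor is the strand setting, so reads of overlapping genes on opposite strands may be mixed. Columns totalled between 869613 and 1209165, and each value was a whole multiple of 1 step, to within 0.01 read in 100% of values. This gave back whole reads. The scaling equalled edgeR's TMM factors on these reads (1.15, 1.14, 0.827 and 0.923 for RNAi 1, RNAi 2, WT 1 and WT 2), so values are called normalised CPM. TMM assumes that most genes do not differ.

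The test took genes reaching 1 normalised CPM in 2 or more libraries and was run with limma 3.58.1 (R 4.3.3, trend on mean level, pseudocount 1, no replicate block). The design had assumed CPM, and the rescaled signal was tested in the same way. Alternatives were other pseudocounts, filters, scalings and member rules, a replicate block, leaving out each library, and edgeR 4.0.16 and DESeq2 1.42.0 on the recovered reads. The members, thresholds and rules were chosen with earlier results of these data known. IDs printed follow a rule: per direction, the called member with the highest mean and that with the largest change, plus 3 members without a call (highest mean, largest WT ratio, smallest span of ranks). None of the 17585 IDs matched RefSeq's table for Cucumber_9930_V3, so no gene list or cell type marker was tested. Replicate numbers were not taken as pairs: across genes, library 1 minus library 2 in RNAi correlated at -0.09 with the same difference in WT, and at -0.33 across the members.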

Additional observations from a re-analysis of the deposited data

How the results depend on the processing

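Pseudocounts, filters and median-of-ratios scaling kept the same 21 higher and 88 lower members. edgeR called 21 and 90, DESeq2 27 and 104, limma without trend 22 and 93, and the replicate block 15 and 77. No label says that equal numbers share a plant or batch. Plain CPM gave 36 higher members and a median log2 fold change of -0.31. Scaling by the reads outside the members gave 29 higher, 79 lower and a median of -0.50. Over all genes tested these were 6515, 4234 and 0.22. Leaving out 1 library gave 6 to 31 higher and 36 to 123 lower members, with medians from -1.12 to -0.45. The lowest counts came without RNAi replicate 1 (6 and 36) and RNAi replicate 2 (7 and 45), where the lone RNAi library is assumed to vary like the WT libraries. The median was -0.45 without WT replicate 1 and -1.12 without WT replicate 2. The difference in read share ranged from -12.5 to -7.36 points when 1 library was left out. Scaling cannot move it for a fixed list of members, but it can change the list. With the 186 genes that averaged at least 500 in plain CPM the difference was -9.05 points. No member called both in limma on all libraries and under another setting changed direction.

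The member rule moved the counts by its construction. A mean of at least 400 gave 253 members with 33 higher, and at least 600 gave 145 members with 8 higher and a median of -0.89. Requiring 500 in both group means gave 90 members with 5 higher, 20 lower, a median of -0.46 and a share difference of -3.71 points. Of the named IDs, Csa1G445860 ranged from -0.28 to 2.96 when 1 library was left out, with an adjusted p of 2.24e-05 without WT replicate 1. Csa5G609710 was called by limma without trend, edgeR and DESeq2 (adjusted p 0.0317, 0.0464 and 0.000216) and without WT replicate 2 (0.0449), and Csa6G356990 by the first 3 of these (0.00621, 0.0298 and 2.32e-07). The member spread within groups kept its size under each scaling (0.17 to 0.19 log2 units in RNAi, 0.37 to 0.40 in WT). Its direction in WT depended on the scaling, with WT library 1 higher in 132 members with normalised CPM and in 99 with plain CPM. Depth hardly limits these genes. The 2 libraries per group do.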
